A study of Mus musculus with 36 samples.

Results

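RNA levels of 6 genes of antigen presentation on MHC class II, namely H2-Aa, H2-Ab1, H2-Eb1, H2-Oa, Cd74 and Ciita, were followed over 24 h of TGF-β1 in mouse blood progenitors. Each gene was taken by its symbol in the platform annotation. Each had exactly 1 probe set, and this probe set carried no other symbol, so the 6 genes are 6 of 19938 genes tested. The cells were multipotent progenitors (MPP), still able to give rise to every kind of blood cell, and common dendritic progenitors (CDP), already restricted to the dendritic cell fate. Both came from mouse bone marrow cultured in vitro with cytokines, and both were sorted by FACS. The untreated groups (0 h) received no TGF-β1, and the other groups were given recombinant human TGF-β1 at 10 ng/ml, harvested after 2, 4, 8, 12 or 24 h, with 3 biological replicates by the study's account in each of the 12 groups, 36 arrays in all. Strain, sex and age of the mice are not given in the sources used here, and no genetic change is named. All levels are log2 intensities of Affymetrix Mouse Gene 1.0 ST arrays, where 1 unit is a 2-fold difference. Levels of different probe sets were compared with each other only to judge the background in MPP. No untreated arrays at later times were analysed here, so what TGF-β1 did and what longer culture did cannot be told apart.

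MHC class II molecules are heterodimers of an α and a β chain that show peptides from endocytosed proteins to CD4 T cells. They are a hallmark of dendritic cells, B cells and macrophages. H2-Aa encodes the α chain and H2-Ab1 the β chain of I-A, and H2-Eb1 encodes the β chain of I-E. Cd74 encodes the invariant chain, which holds the new heterodimer and guides it to endosomes. The heterodimer H2-DM then exchanges the remaining invariant chain fragment for peptide, and H2-O, whose α chain is encoded by H2-Oa, restrains H2-DM. Ciita encodes the class II transactivator, a co-activator that does not bind DNA itself but docks on the factors seated on the conserved X and Y boxes of class II promoters.

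The promoters were searched for core letters of these boxes. Of those that carry such letters 4 are printed, those of H2-Aa, H2-Eb1, H2-Oa and H2-Ob. RefSeq promoters on build GRCm38.p6 were at hand for 8 of the 11 class II chain and exchange factor genes and for 3 of the 6 genes followed here. The last 150 bases before the start site are given 5′ to 3′ on the strand of the gene. Capitals mark the X1 core ACNGATG and the Y core CCAAT, which reads ATTGG where it lies on the other strand. H2-Ob, which encodes the partner chain of H2-Oa, is shown beside H2-Oa. The regions are chr17:34287824-34287973 on the minus strand for H2-Aa, and chr17:34305717-34305866 for H2-Eb1, chr17:34092229-34092378 for H2-Oa and chr17:34238755-34238904 for H2-Ob on the plus strand.
H2-Aa: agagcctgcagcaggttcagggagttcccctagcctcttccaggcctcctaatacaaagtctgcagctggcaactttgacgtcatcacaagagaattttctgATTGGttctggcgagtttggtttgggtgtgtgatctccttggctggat
H2-Eb1: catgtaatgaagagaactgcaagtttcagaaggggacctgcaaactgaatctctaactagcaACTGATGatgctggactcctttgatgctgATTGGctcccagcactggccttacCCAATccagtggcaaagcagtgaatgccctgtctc
H2-Oa: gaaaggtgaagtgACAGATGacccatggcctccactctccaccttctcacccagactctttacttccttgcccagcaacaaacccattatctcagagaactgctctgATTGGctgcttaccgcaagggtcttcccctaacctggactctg
H2-Ob: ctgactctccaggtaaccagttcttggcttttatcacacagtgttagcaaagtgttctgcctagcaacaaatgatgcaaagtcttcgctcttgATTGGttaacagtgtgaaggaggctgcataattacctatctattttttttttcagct
In the 250 bases before the start, searched on both strands, the Y core stood in 33.8% of all 32851 promoters and the X1 core in 8.31%. An X1 core followed by a Y core on the other strand within 50 bases, the order of a class II promoter, stood on the gene's strand in 63 promoters (0.192%). H2-Eb1 was among them, with the X1 core first base at −88, the Y core at −59 and 22 bases between. H2-Eb2, H2-DMb1 and H2-DMb2 held the same order with 22, 23 and 23 bases between. H2-Aa had the Y core at −48, H2-Oa at −43 and H2-Ob at −57. An X1 core of H2-Aa lay on the other strand at −232, outside the printed bases. The X1 core of H2-Oa lay at −137, too far away to count as a pair, and H2-Ob had no exact match to it. The GAS core TTCNNNGAA, letters bound by STAT proteins, stood in 7.02% of all promoters and in 1 of the 8 class II promoters, that of H2-DMb2. None of the matches overlap each other. A match describes letters only and is not a measured binding site. Only these exact letters were searched, so a missing match does not show that a box is missing.

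Some arrays stood apart before any comparison. Replicate 1 of both cell types differed in sex-linked transcripts: Xist lay at 6.84 to 7.28 against 12.6 to 13.7 in replicates 2 and 3, and Kdm5d at 8.97 to 9.28 against 5.61 to 5.88. Interferon-induced genes were high on single arrays. The mean of 11 type I interferon-induced genes was 8.77 on untreated MPP replicate 3 (7.82 and 7.81 on the others), 10.27 on untreated CDP replicate 3 (8.35 and 8.16) and 12.48 on CDP 2 h replicate 3 (8.05 and 8.07). At 4 h in CDP it was 10.29, 8.07 and 9.65, and at 24 h it was 9.31, 8.45 and 9.77 in replicates 1, 2 and 3, so replicates 1 and 3 were raised at 24 h. CDP replicate 3 was the highest of its time at all times except 4 h. Marker lists, chosen with earlier results of these data known, were set beside the labels as a description. In untreated CDP, 7 of 8 common dendritic progenitor genes were higher than in untreated MPP at an adjusted p under 0.01. The share of all genes higher by that rule is not given here. Of 10 neutrophil genes 9 were called lower, where 310 of all 19938 genes were. Of the listed TGF-β-induced genes 6 of 6 were called higher at 24 h in MPP, where 143 of all 19938 genes were. In CDP 5 of 6 were, where 270 of all genes were. This list too was chosen with earlier results known, so it is no independent check of the treatment. In what follows, called means an adjusted p under 0.01 in limma (Benjamini-Hochberg over all genes) together with a log2 change of at least 1. "Rose" and "fell" are used below where the adjusted p alone was under 0.01.

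The first comparison asks how far class II genes were already on in CDP before TGF-β1. In untreated CDP all 6 genes stood far above untreated MPP. The ratio of intensities ran from 2.39-fold for H2-Oa to 51.6-fold for H2-Aa. No detection values were used here. In untreated MPP the levels of H2-Aa (mean 7.33) and Ciita (mean 7.17) lay in the range of the T cell genes Cd3e (7.62), Cd247 (7.10) and Cd8b1 (6.80). Neither is thus shown to be above background in MPP, and their ratios depend on that floor. The floor itself depends on the probe sets chosen, since H2-Ea, the α chain gene of I-E, lay lower (mean 5.93). H2-Aa lay at 6.90, 7.60 and 7.51 on the untreated MPP arrays (replicates 1, 2 and 3 here and below) and at 12.74, 12.88 and 13.45 on the CDP arrays. The gap between the highest MPP and the lowest CDP array was many times the spread inside either group. The difference was 5.69 ± 0.27 on the log2 scale (SE, n = 3 per group, adjusted p = 2.17e-15).

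The β chain genes followed. H2-Ab1 was at 8.89, 9.19 and 9.30 in untreated MPP and at 12.67, 12.95 and 13.46 in untreated CDP, a difference of 3.90 ± 0.23 (14.9-fold, adjusted p = 2.23e-13). H2-Eb1 was at 8.33, 8.23 and 8.42 in MPP and at 11.95, 12.33 and 12.79 in CDP, a difference of 4.03 ± 0.23 (16.3-fold, adjusted p = 1.01e-13). Both β chain genes were thus highest in CDP replicate 3 and lowest in CDP replicate 1. Cd74, the chaperone of the pair, lay at 9.20, 9.79 and 10.15 in MPP and at 13.31, 13.48 and 13.67 in CDP (3.77 ± 0.21, 13.6-fold, adjusted p = 5.83e-14). Ciita lay at 7.11, 7.20 and 7.20 in MPP and at 9.94, 10.59 and 10.80 in CDP (3.27 ± 0.21, 9.64-fold, adjusted p = 6.49e-13). H2-Oa, at 9.45, 9.51 and 9.29 in MPP and 10.51, 10.60 and 10.91 in CDP, differed by 1.26 ± 0.15 (adjusted p = 1.28e-07). All 6 were called higher, where 1.26% of all genes were called higher in this comparison. The groups did not overlap for any of the 6 genes, and the share of all genes without overlap was not counted. The median difference of the 6 genes was 3.84 and that of all genes tested 0.03. Means of 3 marker lists were also higher in untreated CDP than in untreated MPP. They were 9.67 to 9.77 against 8.56 to 8.68 for conventional dendritic cells and 8.64 to 9.34 against 7.78 to 8.09 for activated ones. For B cells they were 7.52 to 7.59 against 7.04 to 7.07, while neutrophil genes went the other way, as given above. The part of such cells in the difference was not tested. In bulk RNA, fewer cells of a type and less RNA per cell cannot be told apart.

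The same comparison was made after 24 h of TGF-β1. The difference between CDP and MPP was then 5.73 for H2-Aa (53.0-fold), 4.63 for H2-Ab1 (24.8-fold), 4.63 for H2-Eb1 (24.8-fold), 1.57 for H2-Oa (2.96-fold), 4.59 for Cd74 (24.1-fold) and 4.46 for Ciita (22.0-fold). All 6 were called higher in CDP at 24 h, against 2.07% of all genes. Both counts of 6 remained under every alternative setting tried.

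**Figure D1:**
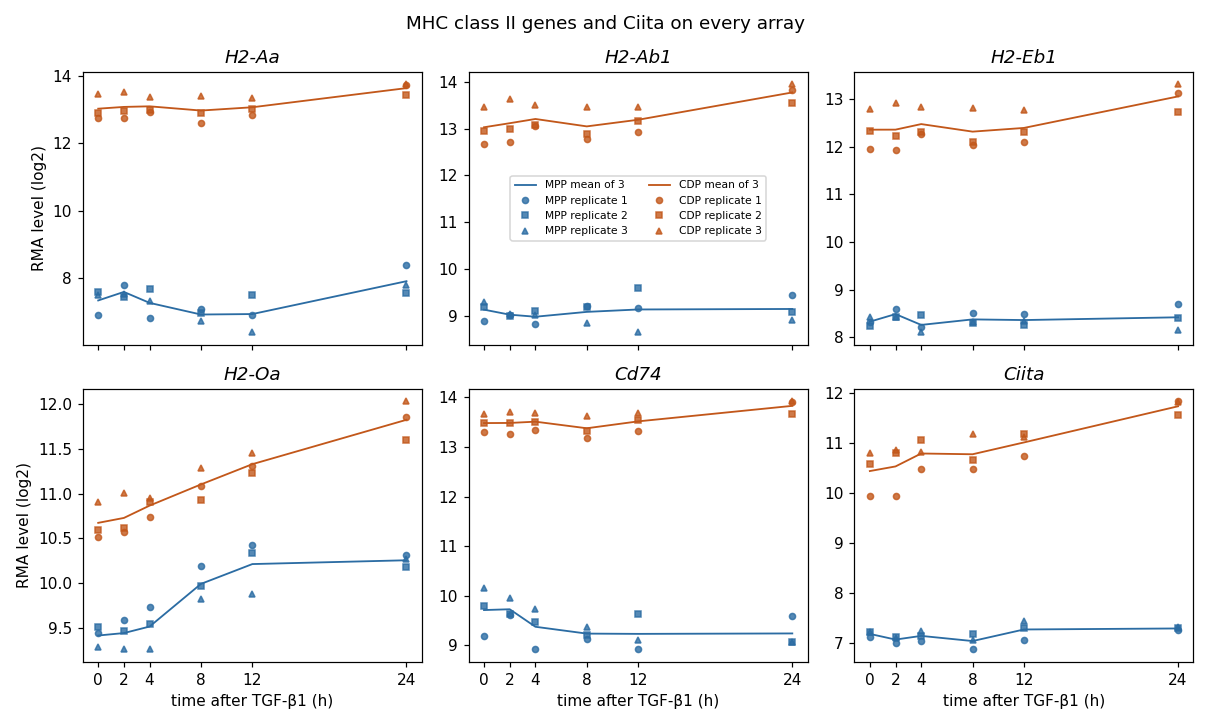
Log2 RMA level (y axis, a scale of its own for each gene) of the 6 genes on every array against time after TGF-β1 in h (x axis). Blue is MPP and orange CDP, circles, squares and triangles are replicates 1, 2 and 3, and lines join the means of 3 arrays. CDP lie above MPP throughout, H2-Oa climbs in both cell types, and Ciita climbs in CDP from a mean of 10.44 to 11.74 while the MPP arrays stay between 6.86 and 7.43.

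The next comparison asks how CDP changed the 6 genes after TGF-β1. At 24 h all 6 had risen, by 1.27-fold for Cd74 up to 2.46-fold for Ciita, and H2-Oa and Ciita passed the 2-fold threshold as well. Thus 6 of 6 passed at an adjusted p under 0.01, where 7.83% of all genes were higher by that rule, and 2 of 6 were called higher, where 1.35% of all genes were. The adjusted p rule without a fold threshold was chosen with the values known. The median change of the 6 genes was 0.72, and that of all genes tested was 0.00. Without the replicate number as a block 2 of 6 passed, again H2-Oa and Ciita.

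Ciita, the transactivator gene, rose on every array. It lay at 9.94, 10.59 and 10.80 at 0 h and at 11.84, 11.56 and 11.83 at 24 h. The lowest array at 24 h was above the highest array of every earlier time, which was 11.19 at 8 h. The change was 1.30 ± 0.17 (adjusted p = 4.61e-05). It passed at the adjusted p in 16 of 16 alternative settings, at 1.00 without replicate 1 and up to 1.47 without CDP 24 h replicate 2. On the way the values were 9.94, 10.81 and 10.86 at 2 h, 10.48, 11.07 and 10.83 at 4 h, 10.48, 10.67 and 11.19 at 8 h, and 10.74, 11.18 and 11.12 at 12 h. These groups overlapped that at 0 h. The means at 4, 8 and 12 h exceeded it by 0.35, 0.34 and 0.57 (SE 0.17 each), and none of these differences passed (adjusted p = 0.32, 0.239 and 0.0338). In 1 fit of all 36 arrays, blocked in the same way, the difference at 12 h passed (adjusted p = 0.00263).

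H2-Oa, the α chain gene of the H2-DM inhibitor, was the earliest of the 6 to pass. It lay at 10.51, 10.60 and 10.91 at 0 h, at 11.09, 10.93 and 11.29 at 8 h, at 11.31, 11.23 and 11.45 at 12 h and at 11.85, 11.59 and 12.03 at 24 h. From 8 h on every array was above all 3 untreated arrays. By 8 h H2-Oa had risen by 0.43 ± 0.08 (adjusted p = 0.00138), by 12 h by 0.65 ± 0.08 (adjusted p = 2.78e-05) and by 24 h by 1.15 ± 0.08 (2.22-fold, adjusted p = 5.13e-08). In the fit of the 18 CDP arrays no other of the 6 passed at 8 h or at 12 h, where 4.62% and 5.58% of all genes were higher by the same rule. Its pass at 8 h was lost without replicate 1 (0.36, adjusted p = 0.0556), replicate 3 (0.45, adjusted p = 0.015), untreated CDP replicate 1 (0.38, adjusted p = 0.013) or CDP 8 h replicate 1 (0.39, adjusted p = 0.0104), and without the block (adjusted p = 0.0597). At 12 and 24 h it passed in 16 of 16 settings.

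The 3 genes of the classical chains passed against 0 h at 24 h only. H2-Aa lay at 12.74, 12.88 and 13.45 at 0 h and at 13.71, 13.44 and 13.75 at 24 h, so the lowest array at 24 h overlapped untreated replicate 3. H2-Ab1 went from 12.67, 12.95 and 13.46 to 13.82, 13.55 and 13.95, and H2-Eb1 from 11.95, 12.33 and 12.79 to 13.12, 12.74 and 13.31. For H2-Ab1 all arrays at 24 h were higher than all at 0 h, whereas for H2-Eb1 the groups overlapped. The changes were 0.61 ± 0.11 for H2-Aa (1.53-fold, adjusted p = 0.000543), 0.74 ± 0.11 for H2-Ab1 (1.68-fold, adjusted p = 0.00011) and 0.70 ± 0.12 for H2-Eb1 (1.62-fold, adjusted p = 0.000404). Between 2 and 12 h their differences from 0 h, and those of Cd74, stayed between −0.10 and 0.18, and none passed. Cd74 lay at 13.31, 13.48 and 13.67 at 0 h and at 13.90, 13.67 and 13.92 at 24 h. All 24 h arrays were higher, with the closest pair equal at this rounding, and the change was 0.35 ± 0.08 (adjusted p = 0.00289).

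How firmly these 4 genes passed differed. H2-Ab1 and H2-Eb1 passed in 15 of 16 settings, losing it only without the block (adjusted p = 0.0409 and 0.103). H2-Aa passed in 13 of 16, with adjusted p = 0.0213 without replicate 2, 0.0402 in 1 fit of all 36 arrays and 0.0775 without the block. Cd74 passed in 9 of 16. It was lost without replicate 1 (0.22, adjusted p = 0.0408), replicate 2 (0.43, adjusted p = 0.0138), replicate 3 (0.39, adjusted p = 0.0216), untreated CDP replicate 1 (0.33, adjusted p = 0.0169) or untreated CDP replicate 3 (0.35, adjusted p = 0.0126), without the block (adjusted p = 0.0979) and in 1 fit of all 36 arrays (adjusted p = 0.153).

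**Figure D2:**
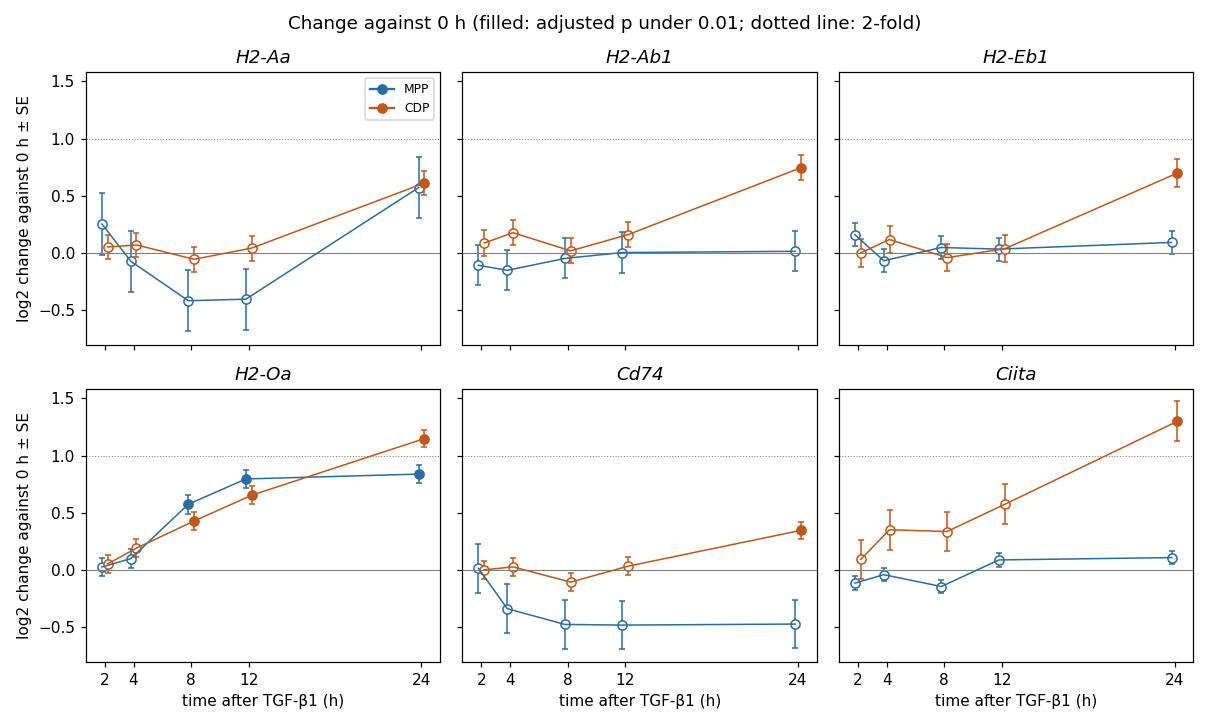
Log2 change against 0 h (y axis) at each time after TGF-β1 in h (x axis) for the 6 genes in MPP and CDP, with bars of 1 SE from limma (n = 3 per group). Filled points have an adjusted p under 0.01, and dotted lines mark a 2-fold change. In CDP all 6 genes are filled at 24 h, while in MPP H2-Oa alone is filled, from 8 h on.

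The last 12 h were compared directly, 24 h against 12 h, because this contrast shares no untreated array. In CDP 4 of the 6 genes rose in this step, where 1.19% of all genes were higher by the same rule. H2-Eb1 rose by 0.66 ± 0.12 (adjusted p = 0.00283), H2-Ab1 by 0.58 ± 0.11 (adjusted p = 0.00368), H2-Aa by 0.57 ± 0.11 (adjusted p = 0.00403) and H2-Oa by 0.49 ± 0.08 (adjusted p = 0.001). Ciita differed by 0.73 ± 0.17 (adjusted p = 0.0169) and Cd74 by 0.31 ± 0.08 (adjusted p = 0.0182), and neither passed. In 1 fit of all 36 arrays Ciita passed (adjusted p = 0.000518), while H2-Aa (adjusted p = 0.105) and H2-Ab1 (adjusted p = 0.0132) did not. The groups did not overlap for H2-Aa, H2-Ab1, H2-Oa and Ciita, and the share of all genes without overlap was not counted. The count of genes that rose was 0 without the block, without replicate 1 or without replicate 3. It was 1 without replicate 2, CDP 12 h replicate 1 or CDP 12 h replicate 3. It was 6 without CDP 24 h replicate 2.

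The shape of the rise could be read from the share of the 24 h change already reached. At 12 h H2-Oa had made 56.9% of its change and Ciita 44.2%, against 21.6% for H2-Ab1, 6.94% for H2-Aa, 5.29% for H2-Eb1 and 9.89% for Cd74. The difference between the step from 12 to 24 h and the step from 0 to 12 h did not pass for any of the 6 genes, however. It was 0.62 ± 0.21 for H2-Eb1 (adjusted p = 0.101), 0.53 ± 0.19 for H2-Aa (adjusted p = 0.134) and −0.16 for H2-Oa (adjusted p = 0.638). Over the whole course, a moderated F-test gave an adjusted p under 0.01 for all 6 genes in CDP. The share of all genes passing by the F-test alone was not counted. With the fold threshold 2 were called, H2-Oa (adjusted p = 2.95e-07) and Ciita (adjusted p = 0.000428), where 3.43% of all genes were called. Without replicate 1, and without the block, 1 of the 6 was called.

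The replicates of CDP differed in a way that ran through the gene group. Replicate 3 had the highest level of H2-Aa, H2-Ab1, H2-Eb1, H2-Oa and Cd74 at all 6 times, by 0.33, 0.35, 0.42, 0.18 and 0.18 above the mean of its time. Ciita did not share this, since its highest array was replicate 1 at 1 time, replicate 2 at 2 times and replicate 3 at 3 times. Replicate 1 was lowest at 0 h in all 6 genes and changed most by 24 h in all 6. From 0 to 24 h Ciita changed by 1.90 in replicate 1, 0.97 in replicate 2 and 1.03 in replicate 3. For H2-Eb1 the same changes were 1.17, 0.40 and 0.52, and for Cd74 0.60, 0.19 and 0.25. All 18 changes were above 0.

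**Figure D3:**
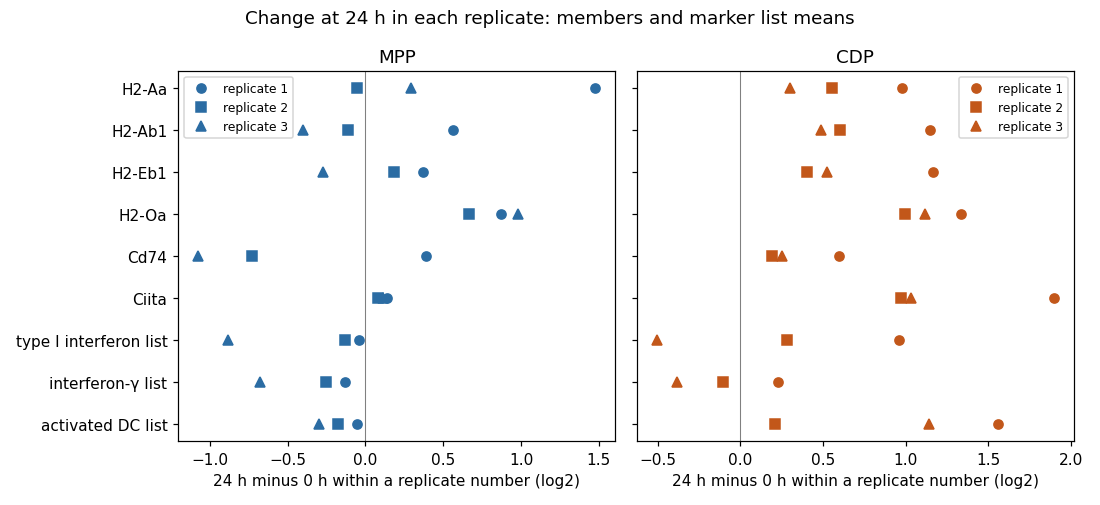
Change from 0 to 24 h in each replicate (x axis, log2) for the 6 genes and the means of 3 gene lists (y axis), in MPP and in CDP. Points are replicates 1, 2 and 3. In CDP every point of the 6 genes lies to the right of 0, and replicate 1 lies farthest right in each. The means of the type I interferon and interferon-γ lists lie on both sides of 0 in CDP and below 0 in every MPP replicate.

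In MPP the comparison with 0 h gave another picture, since H2-Oa alone rose. It lay at 9.45, 9.51 and 9.29 at 0 h, 10.19, 9.97 and 9.82 at 8 h, 10.43, 10.33 and 9.88 at 12 h and 10.32, 10.18 and 10.27 at 24 h. Every array from 8 h on was above all untreated arrays. The rise was 0.58 ± 0.08 at 8 h (adjusted p = 0.000145), 0.80 ± 0.08 at 12 h (adjusted p = 4.99e-06) and 0.84 ± 0.08 at 24 h (1.79-fold, adjusted p = 2e-06). Thus 1 of the 6 genes passed at each of these times, where 5.46%, 4.73% and 5.61% of all genes were higher by the same rule, and none was called with the fold threshold. Between 12 and 24 h the MPP level of H2-Oa differed by 0.04 (adjusted p = 0.853). The pass at 8 h was lost without replicate 1 (0.49, adjusted p = 0.021) and without the block (adjusted p = 0.0215), and those at 12 and 24 h held in 16 of 16 settings.

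The other 5 genes did not pass in MPP at any time. Ciita stayed at 6.86 to 7.43 on all 18 MPP arrays. At 24 h, at 7.25, 7.28 and 7.32, it lay above the 3 untreated arrays (7.11, 7.20 and 7.20), but its change was 0.11 with a 95% interval of −0.02 to 0.23 (adjusted p = 0.279). H2-Ab1 lay at 9.45, 9.08 and 8.89 at 24 h and H2-Eb1 at 8.70, 8.41 and 8.15, with changes of 0.01 ± 0.18 and 0.09 ± 0.10 whose sign turned when single arrays were left out. H2-Aa lay at 8.37, 7.54 and 7.80 at 24 h, a change of 0.57 ± 0.27 with a 95% interval of 0.00 to 1.14 (adjusted p = 0.199). Most of it came with replicate 1, and the change was 0.12 without that replicate. Against 12 h, where it lay at 6.90, 7.50 and 6.39, all 3 arrays at 24 h were higher (0.97 ± 0.27, adjusted p = 0.0692). Cd74 had lower means, at −0.34, −0.47, −0.48 and −0.47 from 4 to 24 h. Its arrays lay at 9.20, 9.79 and 10.15 at 0 h and 9.59, 9.06 and 9.08 at 24 h, so the groups overlapped and the change did not pass (adjusted p = 0.18). Without MPP 24 h replicate 1 it was −0.79 and passed (adjusted p = 0.00788).

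Over the whole MPP course none of the 6 genes was called, where 1.33% of all genes were. H2-Oa had an adjusted p of 1.07e-06 in the F-test without reaching 2-fold, while Ciita had 0.0178 and H2-Aa 0.064.

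Whether the 2 responses differed was tested as the CDP change minus the MPP change. At 24 h this difference was called for Ciita, 1 of the 6 genes, where 0.722% of all genes were called higher. The Ciita change in CDP exceeded that in MPP by 1.19 ± 0.19 (95% interval 0.79 to 1.59, 2.28-fold, adjusted p = 6.5e-05). The MPP side of this difference rests on levels not shown to be above background. It passed at the adjusted p in 21 of 21 settings, from 0.91 to 1.36, but fell below 2-fold without CDP 24 h replicate 1 (0.94) or replicate 1 (0.91). Without replicate 1 Cd74 was called in its place (1.12, adjusted p = 0.0033). Leaving out replicate 1 of MPP, either the untreated or the 24 h array, Cd74 was called beside Ciita (1.01 and 1.14). H2-Eb1 differed by 0.61 ± 0.17 (adjusted p = 0.0118), Cd74 by 0.82 ± 0.25 (adjusted p = 0.0236) and H2-Ab1 by 0.73 ± 0.22 (adjusted p = 0.0259), and with all arrays none of these passed. For H2-Oa the difference was 0.31 with a 95% interval of 0.07 to 0.55 (adjusted p = 0.0828), and for H2-Aa 0.04 with an interval of −0.61 to 0.69 (adjusted p = 0.967). At 2, 4, 8 and 12 h none of the 6 genes passed, with adjusted p between 0.198 and 0.997. The count at an adjusted p alone was 4 without MPP 24 h replicate 1, 3 without untreated MPP replicate 1, and 2 under several other settings.

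**Figure D4:**
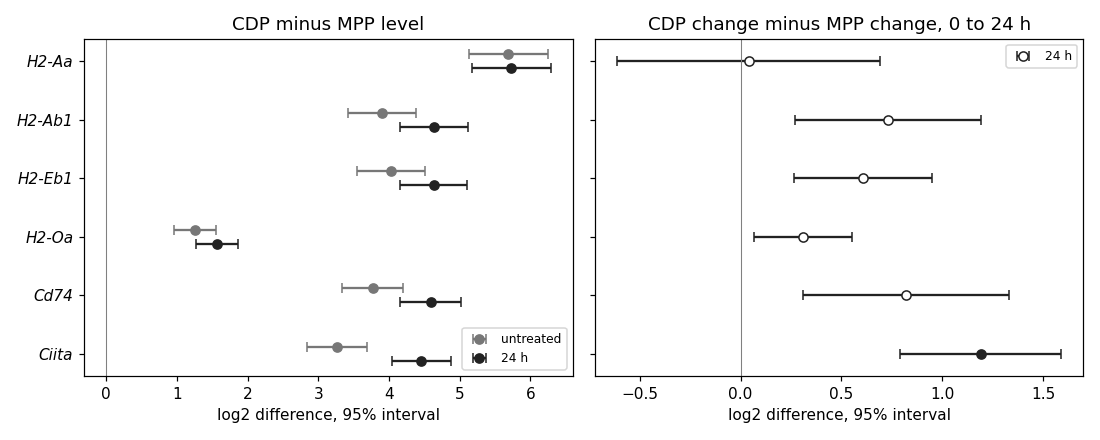
Log2 differences with 95% intervals for the 6 genes: CDP minus MPP in untreated cells and at 24 h, and the CDP change minus the MPP change at 24 h. Filled points are called. All 6 genes are filled in both cell type comparisons, and Ciita alone is filled in the difference of responses.

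The other genes of the class II pathway were read from lists. Of 11 class II chains and exchange factors 9 were measured alone. In CDP 7 of the 9 rose at 24 h and none fell, and in MPP 3 rose and none fell. Of all genes, 7.83% rose and 11.9% fell by this rule in CDP, and 5.61% rose and 4.09% fell in MPP. The counts of genes that rose or fell in the lists below stand against the same shares. Beside the genes described above, those of this list that rose were H2-DMa, the α chain of the peptide exchange factor, and H2-Ob. H2-DMa rose by 0.90 ± 0.07 in CDP (adjusted p = 9.52e-08) and by 0.59 ± 0.06 in MPP (adjusted p = 4.84e-06). H2-Ob rose by 0.61 ± 0.09 in CDP (adjusted p = 8.79e-05) and by 0.74 ± 0.05 in MPP (adjusted p = 6.33e-08). In MPP the 3 genes of this list that rose were thus of H2-O and H2-DM, and no gene of I-A or I-E passed. H2-Ob was lost in CDP without replicate 1 (0.50, adjusted p = 0.0107) and in MPP without the block (adjusted p = 0.191), and on all MPP arrays replicate 3 was the lowest for it, 8.37 at 0 h against 9.12 and 9.19. Untreated CDP exceeded untreated MPP by 1.01 in H2-DMa and by 2.13 in H2-Ob.

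The H2-DM β chain genes H2-DMb1 and H2-DMb2 share a probe set and were fitted among such shared probe sets. That probe set was 1.10 ± 0.11 higher at 24 h than at 0 h in CDP (adjusted p = 3.78e-05 among shared probe sets) and 0.57 ± 0.10 higher in MPP (adjusted p = 0.00372). H2-Ea, the α chain gene of I-E, stayed at 5.86 to 6.10 on all 36 arrays. H2-Eb2, a further β chain gene, varied between replicates of untreated CDP from 6.95 to 9.03, and did not pass at 24 h.

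Proteases and the reductase that prepare peptide and cut the invariant chain moved in both directions. Of 9 genes 3 rose and 2 fell in CDP at 24 h, and 3 rose and 2 fell in MPP. Ctsl, which encodes cathepsin L, was called lower in CDP (−1.23 ± 0.11, adjusted p = 6.03e-07) and in MPP (−1.01 ± 0.10, adjusted p = 2.62e-06, between −1.19 and −0.90 under the settings). Ctss, the cathepsin S gene whose product cuts the invariant chain in dendritic cells, rose by 0.40 ± 0.06 in CDP and 0.33 ± 0.05 in MPP. Ctsb fell and Ctsh rose in both cell types. Ifi30, the gene of the lysosomal thiol reductase GILT, rose by 0.45 ± 0.07 in CDP, was 0.00 ± 0.07 from 0 h in MPP, and the difference of responses passed as well (0.45 ± 0.10, adjusted p = 0.00212). Without replicate 1 Ctss no longer passed in MPP (adjusted p = 0.0251), and the CDP changes of Ctss, Ctsh and Ifi30 had adjusted p of 0.0105, 0.103 and 0.0293. Over all settings the CDP changes passed in 15 of 16 for Ctss, 10 of 16 for Ctsh and 14 of 16 for Ifi30.

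Among 9 genes of class II trafficking and turnover, 4 rose and 1 fell in CDP and 2 rose in MPP. Tspan33, a tetraspanin gene, was called higher in CDP (1.37 ± 0.21, adjusted p = 0.000171) and rose by 0.44 ± 0.08 in MPP, where it passed in 11 of 16 settings (adjusted p up to 0.106). Cd9, another tetraspanin gene, rose by 0.98 ± 0.06 in CDP and 1.00 ± 0.08 in MPP. Marchf8, a ubiquitin ligase gene, rose by 0.62 ± 0.11 in CDP and Cst3, the cystatin C gene, by 0.26 ± 0.04, while Mif fell by 0.63 ± 0.08. Without replicate 1 the passes of Marchf8 (adjusted p = 0.0156) and Cst3 (adjusted p = 0.03) were lost.

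The promoter factor list holds Ciita, its DNA-binding partners and the acetyltransferases that join them. Of its 11 genes 3 rose and none fell in CDP at 24 h, and 1 rose in MPP. Beside Ciita these were Rfx5, a subunit of the X box factor RFX, with 0.49 ± 0.13 (adjusted p = 0.00985), and Creb1 with 0.39 ± 0.09 (adjusted p = 0.00355). Rfx5 passed in 8 of 16 settings and Creb1 in 9 of 16. In MPP Nfya, a subunit of the Y box factor NF-Y, rose by 0.24 ± 0.05 and passed in 8 of 16 settings. Ciita alone of this list was called, and in untreated cells too it was the only one called between CDP and MPP.

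Of 15 measured genes of 16 known or proposed to act on Ciita expression, 3 rose and 1 fell in CDP at 24 h, and 2 rose and 2 fell in MPP. Jak2, a kinase of the interferon-γ receptor, was called higher in CDP (1.30 ± 0.18, adjusted p = 7.76e-05). In MPP it rose by 0.42 ± 0.07 and passed in 12 of 16 settings (adjusted p up to 0.174). Irf4, a transcription factor of dendritic and B cells, rose by 0.97 ± 0.16 in CDP (adjusted p = 0.00024), and its difference of responses was called (1.36 ± 0.25, adjusted p = 0.000273). Neither passed without replicate 1 (adjusted p = 0.031 and 0.0256) or without replicate 2 (adjusted p = 0.0114 and 0.0141). Zbtb46, a factor of conventional dendritic cells, rose by 0.71 ± 0.07 in CDP, and its CDP change exceeded that in MPP by 0.88 ± 0.10 (adjusted p = 4.07e-07). Irf8, a factor of dendritic and monocytic development, rose by 0.66 ± 0.05 in MPP and was at −0.12 ± 0.06 in CDP (adjusted p = 0.218), and the CDP change minus the MPP change was −0.77 ± 0.08 (adjusted p = 4.53e-08). Smad3, a signal transducer of TGF-β, was called lower in CDP (−1.96 ± 0.08, adjusted p = 6.2e-10), fell by 0.40 ± 0.08 in MPP, and the difference was called as well (−1.56 ± 0.12, adjusted p = 5.7e-10). The fall in MPP passed in 10 of 16 settings (adjusted p up to 0.129). For comparison, of 10 measured genes of class I presentation 1 rose in CDP, Tapbp (0.44 ± 0.10), 1 fell in MPP, Nlrc5 (−0.25 ± 0.06), and none was called. Tapbp passed in 7 of 16 settings (adjusted p up to 0.0577) and Nlrc5 in 9 of 16 (up to 0.187).

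**Figure D5:**
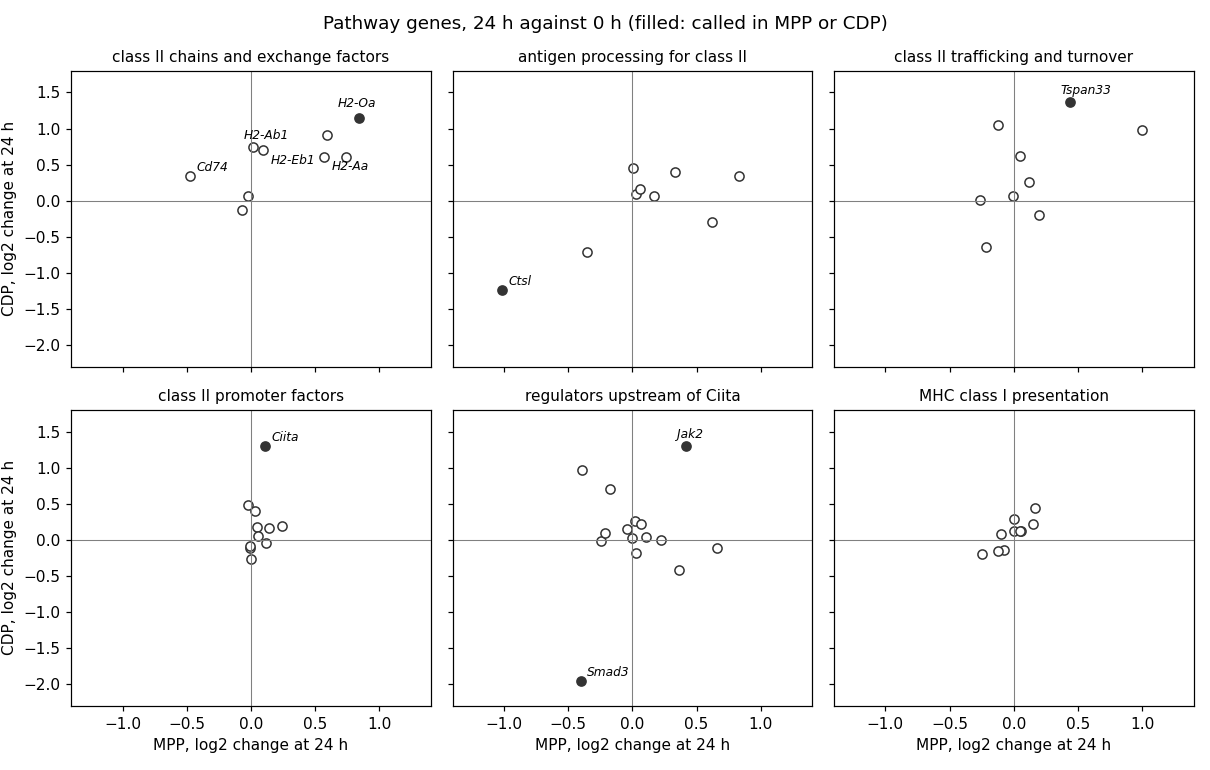
Log2 change at 24 h against 0 h in CDP (y axis) plotted against that in MPP (x axis) for the genes of 6 pathway lists, a panel for each list and a point for each gene. Filled points are called in MPP or CDP. Class II chain genes lie mostly above 0 on the CDP axis, Ciita, Jak2 and Tspan33 lie highest in their panels, Smad3 and Ctsl lie lowest, and class I genes lie close to 0.

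Other cell types and states also express class II genes, so their markers were read beside the 6 genes. Of all 19938 genes, 270 were called higher and 357 lower in CDP at 24 h, and 143 were called higher in MPP. Of 11 genes of activated dendritic cells 4 were called higher in CDP at 24 h: Cd40 (2.16 ± 0.49), Il12b (2.14 ± 0.55), Cd80 (1.31 ± 0.24) and Cd86 (1.16 ± 0.19). The mean level of this list was 8.64 to 9.34 on untreated CDP arrays, 9.10 to 10.48 at 24 h, and 7.72 to 7.80 in MPP at 24 h. It changed by 1.56, 0.21 and 1.14 in CDP replicates 1, 2 and 3. Replicate 1 was first and replicate 2 last for H2-Eb1, H2-Oa, Cd74 and Ciita too, while replicate 3 was last for H2-Aa and H2-Ab1. Cd40 was called in 10 of 16 settings and Il12b in 8 of 16. Langerhans cell genes were called higher in 5 of 8 in CDP and 3 of 8 in MPP, with list means of 8.86 to 9.09 at 0 h and 11.22 to 11.35 at 24 h in CDP. For 12 genes of conventional dendritic cells the list means were 9.67 to 9.77 at 0 h and 9.68 to 9.79 at 24 h in CDP, with 1 gene called higher and 1 lower. Monocyte and macrophage genes were called lower in 6 of 9 in CDP, with list means of 10.16 to 10.58 at 0 h and 8.46 to 8.83 at 24 h.

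None of 10 measured B cell genes rose in CDP at 24 h, and Cd22 (−3.54) and Cd79b (−1.07) were called lower, with list means of 7.52 to 7.59 at 0 h and 7.06 to 7.18 at 24 h. Cd79a and Ebf1, which define B lineage cells, had means of 5.73 and 6.05 in untreated CDP and 5.70 and 6.04 at 24 h. Interferon-γ and type I interferon induce class II or neighbouring pathways in many cells. None of 7 measured interferon-γ-induced genes and none of 11 type I genes passed in CDP at 24 h. Their list means changed by 0.23, −0.10 and −0.38 (interferon-γ) and by 0.96, 0.28 and −0.51 (type I) in CDP replicates 1, 2 and 3. The changes of H2-Aa (0.97, 0.56 and 0.30) and H2-Ab1 (1.15, 0.60 and 0.49) fell in the same order over the replicates as both list means. Those of H2-Eb1 (1.17, 0.40 and 0.52), H2-Oa (1.34, 0.99 and 1.12), Cd74 (0.60, 0.19 and 0.25) and Ciita (1.90, 0.97 and 1.03) were lowest in replicate 2. In replicate 3, where both list means were lower at 24 h than at 0 h, all 6 genes were higher. Untreated CDP replicate 3, the highest of the 3 untreated CDP arrays in type I genes, also had the highest levels of all 6 genes at 0 h, and without it the CDP changes were 1.38 for Ciita and 1.18 for H2-Oa. The part of activated cells, interferon or replicate 1 in the rise of the classical chains was not tested.

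The genes most like Ciita over the 12 group means were Scimp, Ifi30, Ctnnd2, Fam135a and Pde7a, chosen by Pearson's r (0.993 to 0.998) among 2092 genes whose means span at least 1 unit. The 12 points fall in a low MPP set and a high CDP set, so r within a cell type is the fairer description. Within the 6 CDP means r to Ciita was 0.969 for Ifi30, 0.941 for Scimp, 0.878 for Fam135a, 0.843 for Ctnnd2 and 0.794 for Pde7a. Within the 6 MPP means it was −0.772 for Ifi30, 0.165 for Scimp, 0.427 for Fam135a, 0.261 for Ctnnd2 and 0.743 for Pde7a. Those most like H2-Aa were Sema6d, Slc8a1, Ppp3cc, A530040E14Rik and Scimp (0.989 to 0.993). Within CDP their r to H2-Aa ran from −0.851 for A530040E14Rik to 0.809 for Slc8a1, so the likeness to H2-Aa lay mostly in the step between the cell types. The means share arrays and times, and no p is given.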

How the data were processed

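RNA levels of 36 arrays (12 groups of 3) were used. The authors deposited 1 table of log2 intensities for 35556 probe sets, made per the submitters' processing notes with Affymetrix Power Tools and RMA, which corrects background, equalises the distributions of the arrays and summarises probes. Versions and a genome build are not given in the sources used here. RMA removes differences in total signal and compresses changes of dim genes. The study's own analysis used other summaries and tests (FARMS and betr) besides limma. One protocol label gives 6 h where titles and descriptions give 8 h, and 8 h was used.

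By the platform annotation 21789 probe sets carry 1 symbol, 1621 several and 12146 none. Only the first kind was tested, with the probe set of the highest mean for the 999 genes that have several, which left 19938 genes. The number of arrays limits the precision.

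Tests used limma 3.58.1 in R 4.3.3 (lmFit, eBayes), two-sided, with Benjamini-Hochberg adjustment over all genes of a contrast. Times were compared within a cell type (18 arrays, blocked by replicate number). CDP and MPP were compared over 36 arrays unblocked, and the difference of responses over 36 arrays, blocked by replicate number separately in MPP and CDP. Errors are limma SE. Residuals of same-numbered arrays correlated above 0.1 in 15 of 15 pairs in MPP (lowest 0.189) and 15 of 15 in CDP (lowest 0.212), and in 11 of 18 between the cell types, so the number was kept as a block within a cell type only. The code was tested on simulated data: of 100 genes changed by 1.5 on the log2 scale in CDP at 24 h 98% were called, and 97% of 100 for the difference of responses.

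The 6 genes and the 20 gene lists (206 entries, 189 measured) were chosen with earlier results of these data known. Named genes are the 6, pathway list genes called at 24 h, and the 5 genes most like Ciita and H2-Aa. Pathway genes that passed at the adjusted p alone, markers and H2-Ob were named after their values were seen. Promoter sequences are from RefSeq (GRCm38.p6). Alternatives were no block, 1 fit of all arrays, a block shared by both cell types, quantile normalization, median centring, leaving out dim genes, the mean of all probe sets, another eBayes setting, and leaving out each replicate number or array.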

Additional observations from a re-analysis of the deposited data

Results flagged for a closer look

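The change of Ciita at 24 h differed between the cell types by 1.19 on the log2 scale, the CDP change minus the MPP change, by limma's interaction test. Ciita was higher at 24 h than at 0 h in 3 of 3 CDP replicates (1.90, 0.97 and 1.03). In MPP the replicates changed by 0.14, 0.08 and 0.11, at levels not shown to be above background.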

How the results depend on the processing

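Of 738 values of the 6 genes recomputed under the alternatives, 664 kept their direction and their side of the threshold, 44 no longer passed, 17 newly passed and 13 changed sign. Both counts between the cell types stayed at 6, and the 2-fold counts against 0 h at 2 in CDP and 0 in MPP. Without the replicate block, 2 of 6 genes instead of 6 passed in CDP at 24 h, 1 instead of 2 was called over the CDP course, and 0 instead of 4 passed between 12 and 24 h. With arrays left out, these counts ran from 4 to 6, 1 to 2 and 0 to 6. The MPP count at 24 h ran from 1 to 2, the called count of the difference of responses from 0 to 2, and its count at the adjusted p alone from 1 to 4. The last was 2 with quantile normalization, with median centring and without dim genes. Values near 0 changed sign: H2-Ab1 in MPP at 24 h was −0.027 with quantile normalization and −0.26 to 0.22 with arrays left out, H2-Eb1 in MPP at 24 h was −0.047 to 0.28, and the difference of responses of H2-Aa was −0.25 to 0.33. The cause was not tested. No other scaling moved the median of all genes by 0.1. A block shared by both cell types left both counts between them at 6. The number of arrays, 3 per group, limits all of these.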
